A study of Sus scrofa with 9 samples.

Results

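Retinol and retinoic acid metabolism was followed through 9 genes in the livers of MIDY and wild type (WT) pigs: RBP4, LRAT, RETSAT, RDH16, RDH11, RDH10, DHRS3, ALDH1A1 and CYP26A1. They were chosen by gene symbol, and all 9 were present among the 29837 symbols of the deposited count table. All 9 also passed the filter on low counts, which 14100 genes passed in all. The liver takes up vitamin A as retinyl ester, stores it mainly in stellate cells and releases it as retinol bound to a carrier protein. Inside cells retinol is oxidised reversibly to retinal, retinal is oxidised irreversibly to retinoic acid, and retinoic acid activates nuclear receptors before cytochrome P450 enzymes of the CYP26 family break it down. The roles given below are those known from human and mouse.

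The study compared 4 MIDY pigs, which carry a transgene for insulin with the C94Y change, with 5 WT pigs. The name MIDY abbreviates diabetes of youth induced by a mutant INS gene, a form of diabetes in which misfolded insulin harms the insulin-producing cells of the pancreas. All 9 pigs were female and 2 years old, and each library came from the liver of 1 pig. Diabetic pigs were given short- and long-acting insulin, so that the mutation, the diabetes and the insulin treatment cannot be told apart. No label names the promoter that drives the transgene or the founder line.

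MIDY libraries held 14819335 to 18708976 counts and WT libraries 14115415 to 19533463. INS reached only 3 counts in all MIDY pigs together and 2 in all WT pigs together, too few to check the genotype in liver. All 10 hepatocyte markers were detected, with a summed level of 156034 to 186042 CPM (counts per 1e6 counts of the scaled library) in MIDY libraries and 130245 to 186236 CPM in WT libraries. None of the 10 was called by edgeR. CPS1, the first enzyme of the urea cycle, was the 1 with an unadjusted p below 0.05 and the 1 called by DESeq2 (0.57 ± 0.16 log2, SE; edgeR adjusted p = 0.0955). Both CPS1 and APOB were higher in every MIDY than in any WT library, as were 3.72% of all genes tested. APOB had 14839 to 20102 CPM in MIDY and 13743 to 14216 CPM in WT libraries (edgeR adjusted p = 0.355). ADIPOQ, which defines fat cells, had at most 1 count in a library. Of the markers of other cells, edgeR called 0 of 5 biliary, 0 of 6 endothelial, 0 of 6 macrophage, 0 of 2 red blood cell and 0 of 2 adipocyte genes tested. Unadjusted p lay below 0.05 for 1 biliary, 2 endothelial, 3 macrophage, 0 red blood cell and 1 adipocyte gene, against 16.1% of all genes. The 3 macrophage genes went both ways, 1 higher and 2 lower. DESeq2, which called 4.53% of all genes, called 1 gene of these lists, MARCO of the macrophage list, as higher.

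RDH11 rose and CYP26A1 fell in MIDY liver, and the other 7 genes were not called. RDH11, an oxidoreductase that mainly reduces retinal to retinol, was 2.05 times as high in MIDY as in WT liver. CYP26A1, the enzyme that hydroxylates retinoic acid for breakdown, was at 0.451 times its WT level. A gene was called at a Benjamini-Hochberg adjusted p below 0.05 over all genes tested in edgeR's quasi-likelihood test, which called 1.17% of them. In single directions it called 0.816% of all genes higher and 0.355% lower. When each library was left out in turn, RDH11 kept its call in 9 of 9 fits and CYP26A1 in 2 of 9. The 9 genes were picked with earlier results of these data known, so their count of 2 calls has no test of its own. At an unadjusted p below 0.05, 4 of the 9 genes passed (RDH11, RDH16, DHRS3 and CYP26A1), against 16.1% of all genes tested. The median log2 fold change of the 9 was 0.15, and that of all genes tested was -0.0046. Transcript lengths were not used here, so levels are compared between pigs and not between genes.

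**Figure D1:**
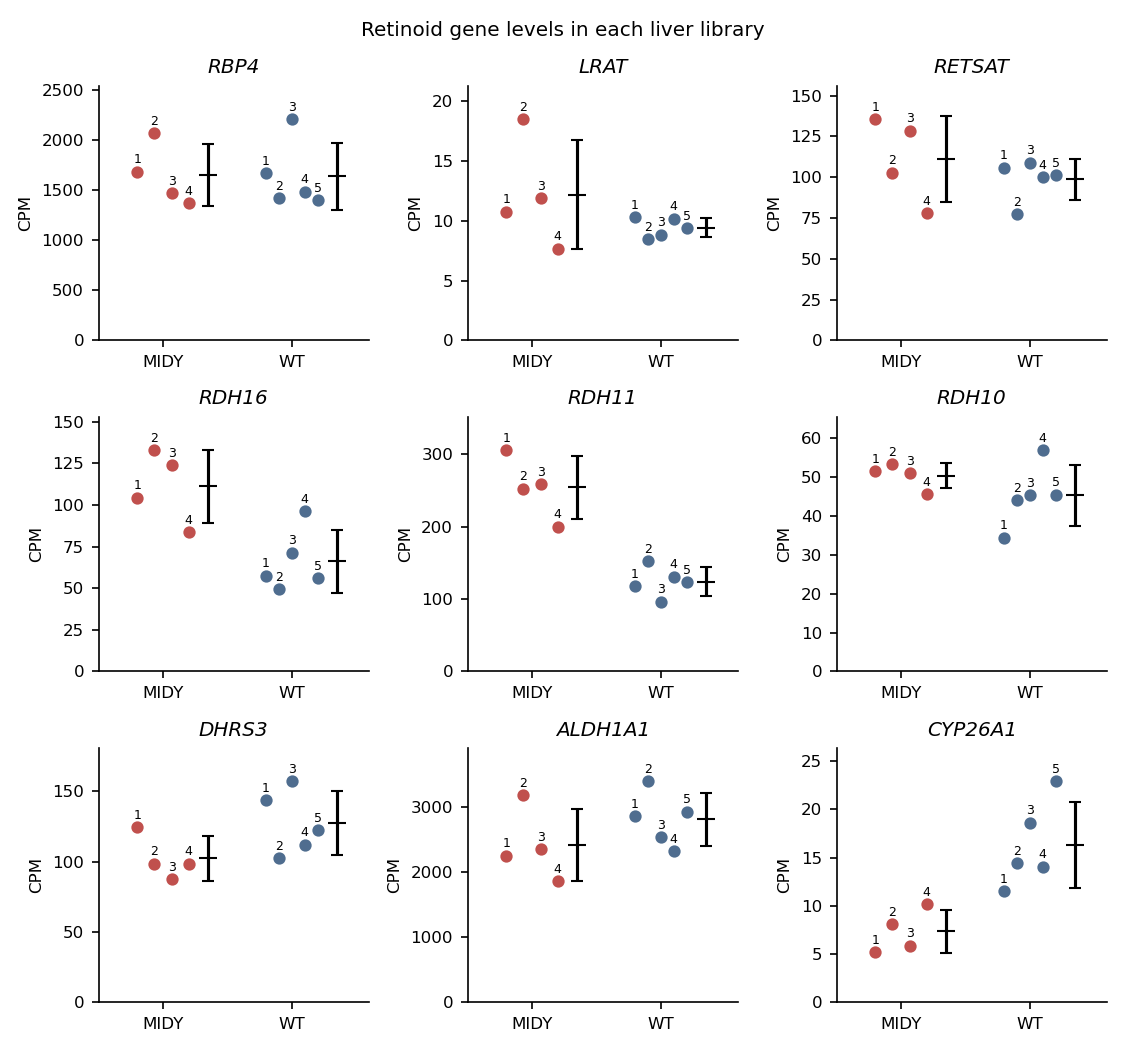
Level of each of the 9 genes in every library, in CPM (vertical axes, starting at 0), with MIDY pigs on the left and WT pigs on the right of each panel; numbers beside the points are replicates, and the bars show the mean and SD (n = 4 and 5). RDH11 and CYP26A1 are the panels in which the points of MIDY and WT do not overlap.

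RBP4 is the plasma carrier that hepatocytes secrete loaded with retinol, and it travels bound to transthyretin, the product of TTR. RBP4 (chromosome 14, 105037360 to 105044552 on Sscrofa11.1, as for all positions below) had 1689, 2075, 1472 and 1370.4 CPM in MIDY replicates 1 to 4, against 1669.9, 1424, 2213, 1487 and 1404 CPM in WT replicates 1 to 5. The groups overlapped over most of their range, with the highest value in WT replicate 3 and the lowest in MIDY replicate 4. The log2 fold change of RBP4 was 0.010 ± 0.17 (SE), with a 95% interval of -0.35 to 0.37 (edgeR adjusted p = 0.986). The sign of this difference changed when single libraries were left out (-0.12 to 0.14). TTR averaged 2541 ± 306 CPM in MIDY and 2497 ± 299 CPM in WT liver (SD, n = 4 and 5), a log2 fold change of 0.025 ± 0.13 (SE; edgeR adjusted p = 0.951). Within a library the ratio of RBP4 to TTR counts does not depend on scaling. It was 0.699, 0.705, 0.569 and 0.617 in MIDY libraries, against 0.565, 0.602, 0.838, 0.662 and 0.616 in WT libraries. All 4 MIDY ratios lay inside the WT range. The whole of RBP4 lies within the span of PDE6C, which had 68 counts over all libraries against 244050 for RBP4.

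LRAT, which esterifies retinol for storage, was detected at a low level, with 128 to 266 counts per library. LRAT (chromosome 8, 74412226 to 74428713) had 10.7, 18.5, 11.9 and 7.66 CPM in MIDY replicates 1 to 4, against 10.3, 8.44, 8.83, 10.1 and 9.38 CPM in WT replicates 1 to 5. MIDY livers held both the highest and the lowest value, and the coefficient of variation was 37.4% in MIDY and 8.54% in WT pigs. The counting error alone would be 8.84% at the lowest count. Its log2 fold change of 0.37 ± 0.21 (SE; edgeR adjusted p = 0.414) was 0.10 without MIDY replicate 2. In liver LRAT is a stellate cell gene. The 14 markers of stellate cells and fibroblasts summed to 594 to 697 CPM in MIDY and 663 to 849 CPM in WT libraries. None of the 14 was at 0, 11 had fitted values below 0, and edgeR called 0 of them. At an unadjusted p below 0.05 there were 4, against 16.1% of all genes tested. DESeq2, which called 4.53% of all genes, called 1 of the 14 markers (COL1A1, lower). Their part in the LRAT values was not tested.

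RETSAT saturates a double bond of retinol and is a known target of PPAR receptors in mouse. RETSAT (chromosome 3, 59401161 to 59416829) had 136, 103, 129 and 77.9 CPM in MIDY replicates 1 to 4, against 106, 77.4, 109, 99.9 and 101 CPM in WT replicates 1 to 5. The groups overlapped, and MIDY replicates 1 and 3 lay above every WT pig. The log2 fold change was 0.17 ± 0.16 (SE), with a 95% interval of -0.17 to 0.52 (edgeR adjusted p = 0.639). Its model overlaps that of ELMOD3 by 33 bases and that of TGOLN2 by 149 bases, whose log2 fold changes were -0.010 and 0.028, so its counts carry some uncertainty.

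RDH16, RDH11, RDH10 and DHRS3 belong to the short-chain dehydrogenase/reductase family and act between retinol and retinal. RDH16 and RDH10 oxidise retinol, and RDH10 is the oxidase most needed for retinoic acid in the mouse embryo. DHRS3 and RDH11 work mainly in the reducing direction, and DHRS3 binds RDH10 in a complex.

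RDH11 (chromosome 7, 91415041 to 91452530) had 306, 253, 259 and 200.4 CPM in MIDY replicates 1 to 4, against 118, 152, 96.4, 131 and 123 CPM in WT replicates 1 to 5. Every MIDY pig lay above every WT pig. Such a separation was seen in 6.35% of all genes tested, and in the higher direction in 3.72%. The means were 255 ± 43.2 CPM in MIDY and 124 ± 20.3 CPM in WT liver (SD, n = 4 and 5). This was a log2 fold change of 1.04 ± 0.15 (SE), with a 95% interval of 0.72 to 1.35 and an edgeR adjusted p of 0.00911. By p-value RDH11 ranked 15 of the 14100 genes tested. Leaving out any 1 of the 9 libraries kept the call, with a log2 fold change between 0.93 and 1.13 and an edgeR adjusted p of at most 0.0342. In whole tissue, a change in RNA per cell and a change in the number of cells that make the transcript cannot be told apart. RDH12, a close relative that lies 28707 bases away, had 3 counts over all libraries, against 27690 for RDH11.

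RDH16 (chromosome 5, 22251751 to 22266801) had 104, 133, 124 and 83.8 CPM in MIDY replicates 1 to 4, against 57.4, 49.3, 71.4, 96.1 and 55.9 CPM in WT replicates 1 to 5. MIDY replicates 1 to 3 lay above all WT pigs, and WT replicate 4 lay above MIDY replicate 4. The means were 111 ± 21.8 CPM in MIDY and 66.0 ± 18.7 CPM in WT liver (SD, n = 4 and 5). Its log2 fold change of 0.75 ± 0.20 (SE; 95% interval 0.33 to 1.18) was not called (edgeR adjusted p = 0.0897). The call depended on 1 library and on the tool: without WT replicate 4 RDH16 was higher by 0.93 (edgeR adjusted p = 0.0342). DESeq2, which called 4.53% of all genes, gave an adjusted p of 0.0135. Over the 18 alternatives tried the adjusted p ran between 0.0135 and 0.238. SDR9C7, another short-chain dehydrogenase gene, ends 128 bases before the RDH16 model and had about as many counts (12992 over all libraries, against 12894 for RDH16). SDR9C7 averaged 87.1 ± 7.05 CPM in MIDY and 85.3 ± 26.0 CPM in WT liver (SD, n = 4 and 5), with a log2 fold change of 0.030 ± 0.19 (SE; edgeR adjusted p = 0.961). How the counting assigned reads between these neighbours is not known here, and the level of each is uncertain for that reason.

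RDH10 (chromosome 4, 62569877 to 62600981) had 51.4, 53.2, 50.9 and 45.6 CPM in MIDY replicates 1 to 4, against 34.4, 44.1, 45.3, 56.9 and 45.5 CPM in WT replicates 1 to 5. All 4 MIDY values lay within the WT range, and MIDY pigs varied little (coefficient of variation 6.51% in MIDY and 17.6% in WT). The log2 fold change was 0.15 ± 0.13 (SE), with a 95% interval of -0.13 to 0.43 (edgeR adjusted p = 0.604).

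DHRS3 (chromosome 6, 72556234 to 72599233) had 124, 98.4, 87.5 and 98.5 CPM in MIDY replicates 1 to 4, against 144, 102, 157, 112 and 122 CPM in WT replicates 1 to 5. MIDY replicates 2 to 4 lay below all WT pigs, and MIDY replicate 1 lay among the WT pigs. DHRS3 had a log2 fold change of -0.32 ± 0.14 (SE), with a 95% interval of -0.63 to -0.0054, and it was not called over all genes (unadjusted p = 0.0467, edgeR adjusted p = 0.301). The ratio of RDH10 to DHRS3 counts was 0.413, 0.541, 0.582 and 0.463 in MIDY libraries, against 0.239, 0.431, 0.288, 0.508 and 0.372 in WT libraries. It averaged 0.500 ± 0.076 in MIDY and 0.368 ± 0.108 in WT (SD, n = 4 and 5), and the groups overlapped. No test was made of this ratio, because both genes were chosen with earlier results known.

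**Figure D2:**
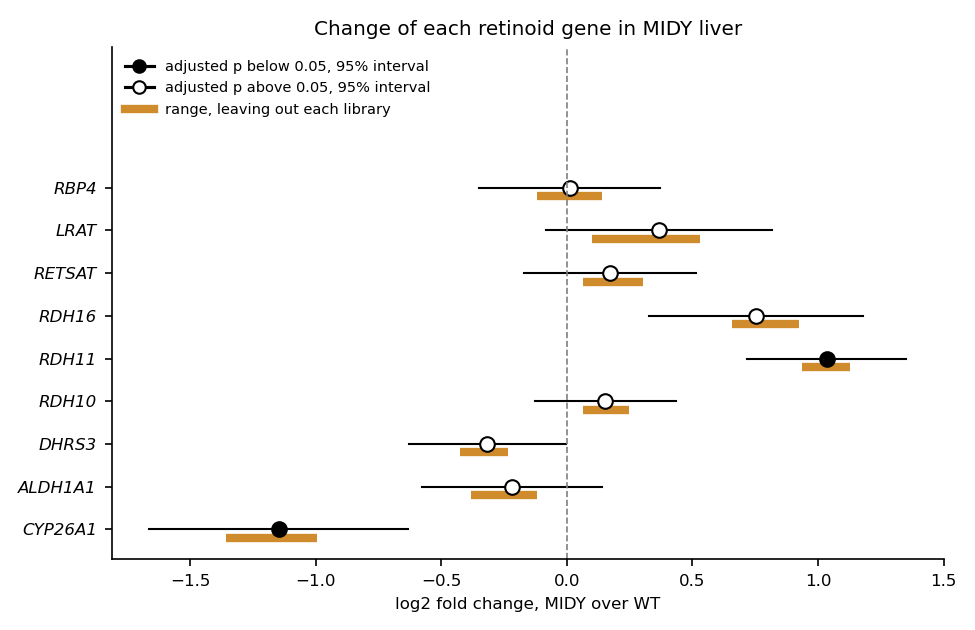
Log2 fold change of each of the 9 genes in MIDY over WT liver (horizontal axis), with its 95% interval as a line and, in orange, the range of the value when each library was left out in turn. Filled points, RDH11 at 1.04 and CYP26A1 at -1.15, had an edgeR adjusted p below 0.05; the interval of RDH16 lies above 0, but its adjusted p was 0.0897.

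ALDH1A1, the main retinal dehydrogenase of adult liver, oxidises retinal to retinoic acid as well as other aldehydes. ALDH1A1 (chromosome 1, 226163347 to 226217342) was among the abundant transcripts, with 35500 to 67839 counts per library. It had 2247, 3179, 2347 and 1862 CPM in MIDY replicates 1 to 4, against 2850.3, 3389, 2536, 2316 and 2922 CPM in WT replicates 1 to 5. The groups overlapped, with MIDY replicate 4 the lowest and WT replicate 2 the highest. ALDH1A1 had a log2 fold change of -0.22 ± 0.17 (SE), with a 95% interval of -0.58 to 0.14 (edgeR adjusted p = 0.555). The counting error was at most 0.531%, against coefficients of variation of 23.0% in MIDY and 14.6% in WT pigs.

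CYP26A1 (chromosome 14, 104561394 to 104567099) is both the main liver enzyme of retinoic acid breakdown and itself a textbook target that retinoic acid induces. It had 5.24, 8.12, 5.90 and 10.2 CPM in MIDY replicates 1 to 4, against 11.5, 14.4, 18.6, 14.1 and 22.9 CPM in WT replicates 1 to 5. Every MIDY pig lay below every WT pig, a separation seen in the lower direction in 2.63% of all genes tested. The nearest values were those of MIDY replicate 4 and WT replicate 1, which came from 194 and 166 counts. The change was -1.15 ± 0.24 on the log2 scale (SE), with a 95% interval of -1.66 to -0.63, and the edgeR adjusted p of 0.0425 was close to the threshold. Counts ran between 84 and 406 per library, and at the lowest count the counting error would be 10.9%, against coefficients of variation of 30.5% in MIDY and 27.5% in WT pigs.

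Leaving out any 1 library kept the direction of CYP26A1, with a log2 fold change between -1.36 and -0.99, but the call was kept in 2 of these 9 fits (without MIDY replicate 4 and without WT replicate 1). The edgeR adjusted p was 0.0820, 0.104 and 0.123 without MIDY replicates 1, 2 and 3, and 0.0686, 0.0928, 0.0655 and 0.0783 without WT replicates 2, 3, 4 and 5. With total counts as the scale it was 0.0667, and in the other 8 alternatives CYP26A1 was called. The 9 markers of pericentral hepatocytes, those next to the central vein, summed to 3974 to 5725 CPM in MIDY and 4881 to 9132 CPM in WT libraries. None of the 9 markers was at 0. Most of this sum was CYP2E1, which averaged 4133 ± 679 CPM in MIDY and 5642 ± 1697 CPM in WT liver (SD, n = 4 and 5). The sum therefore says little about the other markers. Of the 9, 5 had fitted values above 0 and 4 had fitted values below 0, with a median log2 fold change of 0.24. TBX3, a transcription factor, was the 1 called by edgeR, higher in MIDY liver (0.93 ± 0.18 log2, SE; edgeR adjusted p = 0.0310). GLUL, glutamine synthetase, averaged 140 ± 35.6 CPM in MIDY and 277 ± 129 CPM in WT liver (SD, n = 4 and 5; -0.98 log2, edgeR adjusted p = 0.170). CYP2E1 and LGR5 had log2 fold changes of -0.45 each (edgeR adjusted p = 0.310 and 0.317), and CYP1A2 had -0.14 (edgeR adjusted p = 0.709). OAT, RHBG, AXIN2 and SLC1A2 went the other way, by 1.11, 0.73, 0.33 and 0.24 log2 units (edgeR adjusted p = 0.0532, 0.435, 0.302 and 0.674). Unadjusted p lay below 0.05 for 4 of the 9, 3 higher and 1 lower, against 16.1% of all genes tested. DESeq2, which called 4.53% of all genes, called 3 of the 9 markers, TBX3 and OAT higher and GLUL lower. Their part in the CYP26A1 result was not tested.

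The lowest and highest values of the 9 genes were spread over several libraries. With 9 genes and 9 libraries some pigs hold more than 1 extreme by chance, and no test was made of this. MIDY replicate 4 had the lowest value of all 9 libraries for 3 genes (ALDH1A1, RBP4 and LRAT), and WT replicate 2 for 2 genes (RDH16 and RETSAT). The highest value was in MIDY replicate 1 for RDH11 and RETSAT, in MIDY replicate 2 for RDH16 and LRAT, and in WT replicate 3 for DHRS3 and RBP4. MIDY replicate 1 was also the lowest for CYP26A1, and WT replicate 3 the lowest for RDH11. These ranks depend in part on the scaling, whose factor was largest in MIDY replicate 4 (1.10) and smallest in WT replicate 3 (0.900). By total counts alone MIDY replicate 4 was not the lowest for RBP4 or LRAT. WT replicate 3 was then not the highest for RBP4 or DHRS3. In the fit with total counts alone as the scale, none of the 9 genes changed direction between MIDY and WT.

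For the called genes, the 3 genes whose levels followed them most closely over the 9 libraries were found by the root mean square difference of log2 CPM, each gene centred on its own mean. For RDH11 these included AFMID, an enzyme of tryptophan breakdown, and MIGA2, a protein of the mitochondrial outer membrane. They differed from RDH11 by 0.167 and 0.169 log2 units. Both were higher in MIDY liver, by 0.93 and 1.08 on the log2 scale (edgeR adjusted p = 0.0122 and 0.0109). For CYP26A1 they were SFRP1, a secreted inhibitor of Wnt signals, LOC110256684 and EXOC3L4, at 0.231, 0.308 and 0.320 log2 units. SFRP1 was lower in MIDY liver by a log2 fold change of -1.18 ± 0.20 (SE; edgeR adjusted p = 0.0217) and kept its call in 3 of the 9 fits with 1 library fewer. The other two were not called (-1.14 and -0.60 log2; edgeR adjusted p = 0.0650 and 0.191). Likeness of this kind was looked for among all genes with a mean of at least 5 CPM and has no test. A gene picked for likeness to a called gene tends to share its difference between the groups. The directions and adjusted p of the genes named here therefore follow in part from that choice.

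**Figure D3:**
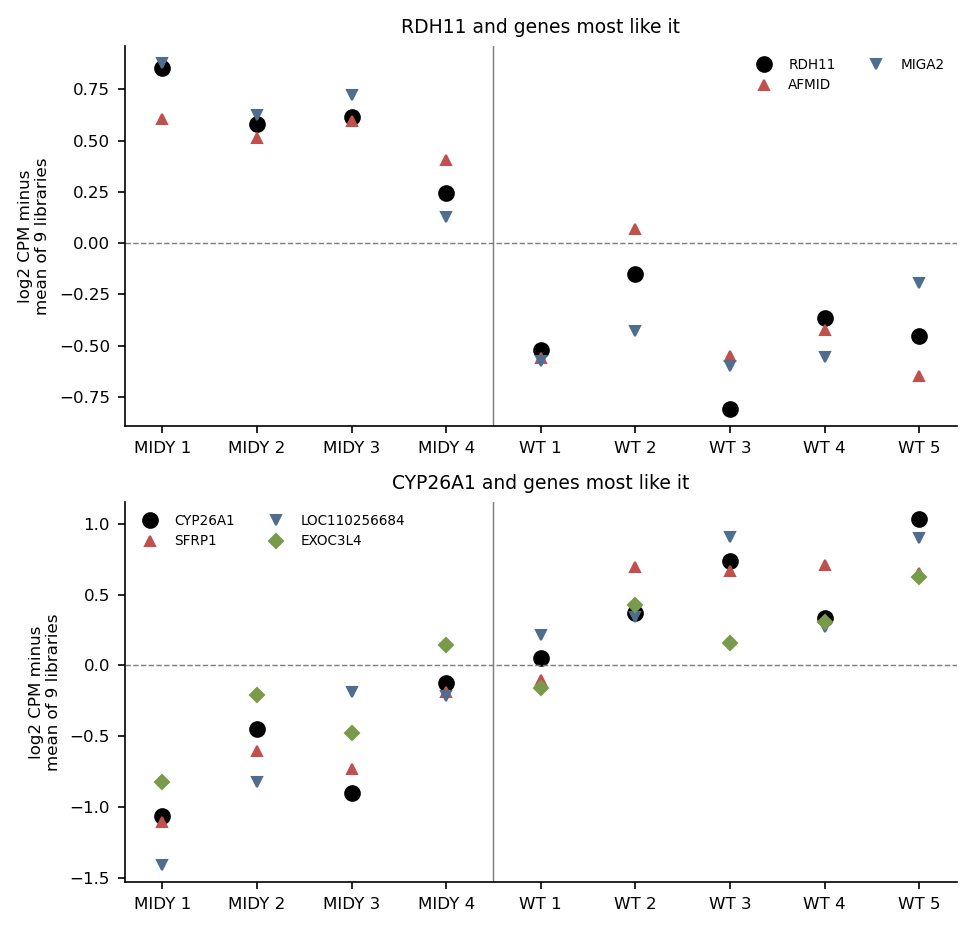
Log2 CPM of RDH11 (upper panel) and CYP26A1 (lower panel) and of the named genes most like each, minus each gene's mean over the 9 libraries (vertical axes), with MIDY libraries left of the vertical line and WT libraries right of it. In the upper panel MIDY replicate 4 is the lowest MIDY library for all 3 genes, and in the lower panel WT replicate 1 is the lowest WT library for all 4.

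The rest of the retinoid pathway was read from 62 other genes in 6 lists by role, of which 55 were in the table and 41 were tested. EdgeR called 0 of the 41, DESeq2 called 1 and limma voom, which called 1.62% of all genes, called 0. At an unadjusted p below 0.05 there were 11 (3 with higher and 8 with lower values), against 16.1% of all genes. Of all 14100 genes tested, 1149 passed with higher and 1128 with lower values. The median log2 fold change of the 41 was -0.0050. RDH8, CRABP2 and AWAT2 had 0 counts in all libraries, and STRA6, the RBP4 receptor of other tissues, had at most 1. CYP26B1 and CYP26C1, also of the CYP26 family, were not in the table, so their levels are not known here. Of the list of other retinoic acid synthesis and breakdown enzymes, 4 of 8 were in the table.

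Among binding and uptake genes, RBP5, a carrier of retinol inside cells, averaged 20.6 ± 8.04 CPM in MIDY and 29.8 ± 4.61 CPM in WT liver (SD, n = 4 and 5; edgeR adjusted p = 0.258). Without MIDY replicate 1, which at 32.3 CPM was the one MIDY pig within the WT range, RBP5 was called lower (-0.83 log2, edgeR adjusted p = 0.0329). SCARB1, a receptor for lipoproteins and carotenoids, had a log2 fold change of -0.34 ± 0.12 (SE; edgeR adjusted p = 0.197). Of 6 tested genes of this list 2 had values above 0 and 4 below, with a median of -0.38.

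In the list of carotenoid cleavage and retinyl ester handling, PNPLA3, which hydrolyses retinyl esters in human stellate cells, had the lowest fitted value of the 41. PNPLA3 had 0.998, 0.833, 2.79 and 1.52 CPM in MIDY replicates 1 to 4, against 21.6, 5.15, 4.83, 1.95 and 5.25 CPM in WT replicates 1 to 5. WT replicate 1 stood far above the others, and MIDY replicate 3 lay above WT replicate 4. Its log2 fold change of -2.30 ± 0.72 (SE; edgeR adjusted p = 0.175) was -1.47 without WT replicate 1 (edgeR adjusted p = 0.100). DESeq2 called it (adjusted p = 0.0329). PNPLA2, a lipase of lipid droplets, had 36.0 to 48.2 CPM in MIDY and 26.3 to 35.3 CPM in WT liver. Every MIDY pig lay above every WT pig, as in 3.72% of all genes tested. PNPLA2 was not called (0.38 ± 0.12 log2, SE; edgeR adjusted p = 0.165). CES1, a carboxylesterase, varied widely in both groups, with 40.3 to 105 CPM in MIDY and 14.1 to 60.6 CPM in WT liver (edgeR adjusted p = 0.428).

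Among the other enzymes that act on retinol and retinal, DHRS9 and RDH14 were detected at low levels, at most 2.75 and 4.03 CPM in a library. DHRS9 differed by -0.84 ± 0.31 and RDH14 by -0.49 ± 0.21 log2 units (SE; edgeR adjusted p = 0.212 and 0.282). ADH4, an alcohol dehydrogenase that oxidises retinol, averaged 611 ± 55.5 CPM in MIDY and 533 ± 34.0 CPM in WT liver (SD, n = 4 and 5; edgeR adjusted p = 0.381). Of the 9 tested genes of this list 5 had values above 0 and 4 below. ALDH1A2, the retinal dehydrogenase of embryos, averaged 7.001 ± 1.82 CPM in MIDY and 4.84 ± 1.03 CPM in WT liver (SD, n = 4 and 5; edgeR adjusted p = 0.241), and ALDH1A3, a further one, had a log2 fold change of -0.34 ± 0.26 (SE; edgeR adjusted p = 0.554). ALDH8A1, which was first described as oxidising the 9-cis form of retinal, had 224 to 246 CPM in MIDY and 129 to 247 CPM in WT liver. It differed by 0.44 ± 0.16 log2 units (SE; edgeR adjusted p = 0.197). Without WT replicate 1, the highest WT pig, ALDH8A1 was called higher (0.60 log2, edgeR adjusted p = 0.0304).

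None of the 9 tested receptors and coregulators reached an unadjusted p below 0.05. RARA and RARB, receptors of retinoic acid, and RXRB, a receptor they pair with, differed by -0.32 ± 0.16, 0.22 ± 0.13 and 0.29 ± 0.17 log2 units (SE; edgeR adjusted p = 0.351, 0.431 and 0.444). Of 8 tested genes outside the 9 that retinoic acid is known to induce, 0 were called by edgeR, DESeq2 or limma voom. Of these 8, 6 had fitted values below 0 and 3 passed an unadjusted p of 0.05, with a median of -0.32. Of all 14100 genes tested, 7153 had fitted values below 0 and 16.1% passed an unadjusted p of 0.05. No test was made over the 8 genes. TGM2, a transglutaminase, had 17.0 to 20.2 CPM in MIDY and 22.0 to 37.8 CPM in WT liver, a log2 fold change of -0.50 ± 0.15 (SE; edgeR adjusted p = 0.131). RARRES1, named for its response to retinoids, had 55.9 to 80.4 CPM in MIDY and 82.9 to 120.3 CPM in WT liver, a log2 fold change of -0.43 ± 0.14 (SE; edgeR adjusted p = 0.168). In both, every MIDY pig lay below every WT pig, as in 2.63% of all genes tested, but neither was called. RARB, the receptor gene that retinoic acid induces, had a value above 0 (7.16 ± 0.54 CPM in MIDY and 6.14 ± 0.35 CPM in WT liver; SD, n = 4 and 5).

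**Figure D4:**
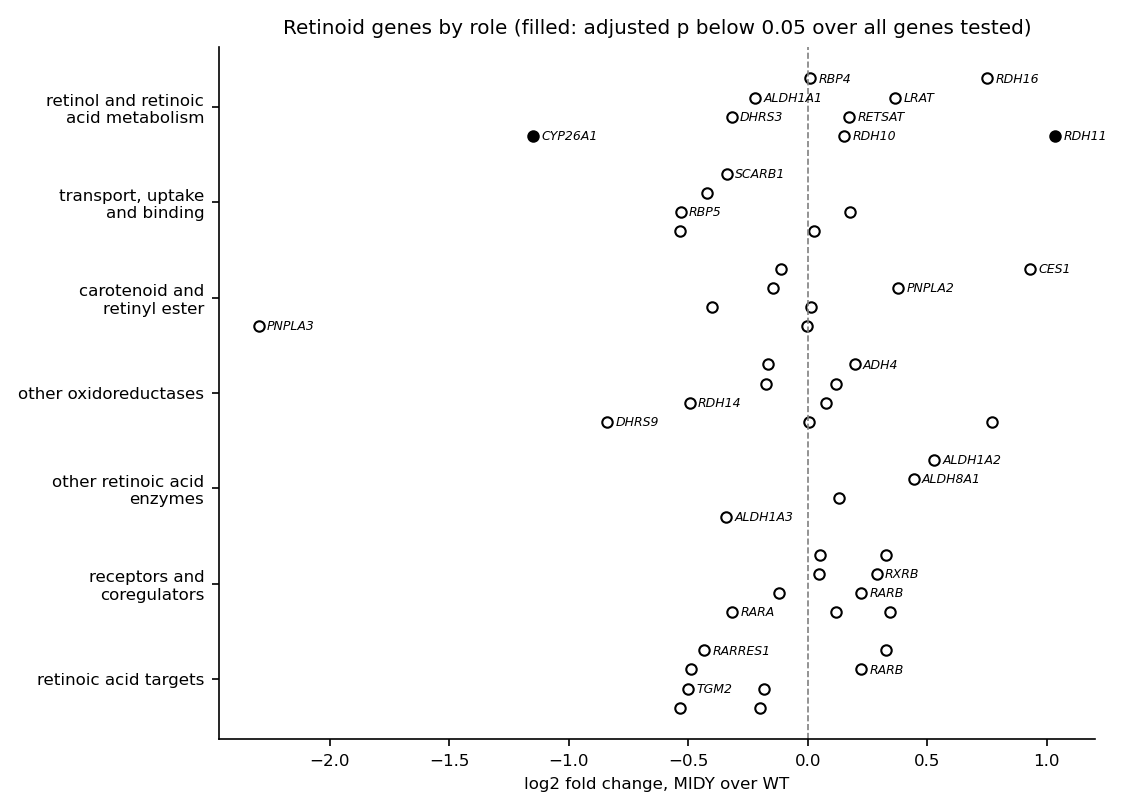
Log2 fold change in MIDY over WT liver (horizontal axis) of the 9 genes (top row) and of the 41 other tested retinoid genes by role, 1 point per gene; names are given for the 9 and for the other retinoid genes named in the text, and RARB is one of the genes that stand in 2 rows. RDH11 and CYP26A1 are filled because their edgeR adjusted p was below 0.05, and PNPLA3 lies lowest at -2.30 without being called.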

How the data were processed

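Liver RNA of 4 MIDY and 5 WT pigs was sequenced after ribosomal depletion with the Encore kit of Nugen, per the labels' protocols. STAR, HTSeq, DESeq2 and the build Sscrofa11.1 are named in the submitters' processing notes, with versions, settings and strand option not given in the sources used here, so overlapping or neighbouring genes are uncertain. The table that the authors deposited holds raw whole-number counts by gene symbol, 14115415 to 19533463 per library.

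The count test was run in edgeR 4.0.16 (R 4.3.3): filterByExpr on the group, TMM scaling and the robust quasi-likelihood test on all 14100 genes kept, with Benjamini-Hochberg adjustment over all of them. CPM are counts per 1e6 of the TMM-scaled library size. Dividing a log2 fold change by the square root of its F gave its standard error. The script was tested on simulated data. Alternatives were RLE and total-count scaling, the 10 most abundant genes left out, no filter, a stricter filter (1 CPM in 4 libraries), DESeq2 1.42.0, limma 3.58.1 voom with sample weights, 1 surrogate variable (sva 3.50.0), each library left out, and WT replicates 1 and 2 left out together.

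The 9 genes, the 6 lists of other retinoid genes and the lists of markers were chosen with earlier results of these data known. Named by rule are, of each retinoid list, the called genes and the 3 tested genes with the smallest p, and for each called member the 3 genes most like it, some of which are not reported here; neighbours, TTR and single markers were chosen after their values were seen. Markers of 8 cell types were read in the same fit. Positions are from the RefSeq table of Sscrofa11.1, in which all 29837 symbols were found.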

Additional observations from a re-analysis of the deposited data

Results flagged for a closer look

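In 26 genes, the 9 members and the 17 other retinoid genes picked by rule, each group was searched for a pig far from the rest of its group on the log2 scale. The measure was Dixon's ratio of gap to range. Its cutoff was passed in 7 of 52 groups. For independent values that follow a normal curve about 1 in 20 groups would pass. The groups here share the same 9 pigs, so the count of 7 has no test. RETSAT was low in WT replicate 2, at 77.4 CPM against 99.9 to 109 CPM in the other WT pigs. PNPLA2 was low in the same pig, at 26.3 CPM against 32.8 to 35.3 CPM. ADH4 was low in MIDY replicate 4, at 528 CPM against 635 to 645 CPM in the other MIDY pigs. DHRS9 was low in MIDY replicate 4 as well, at 0.787 CPM against 1.11 to 1.19 CPM. RARRES1 was low in MIDY replicate 3, at 55.9 CPM against 77.1 to 80.4 CPM. ADH4 was high in WT replicate 1, at 593 CPM against 513 to 524 CPM in the other WT pigs. TGM2 was high in WT replicate 3, at 37.8 CPM against 22.0 to 25.3 CPM. RDH11, RDH16 and CYP26A1 had no such pig in either group.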

How the results depend on the processing

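All 18 alternatives kept the direction of 8 of the 9 genes. RBP4, at 0.010, was negative in 6 of them: its log2 fold change was -0.12 to 0.14 over the fits that left out a library and -0.049 without WT replicates 1 and 2. RDH11 was called in all 18. The 2 members called became 1 with total counts as the scale and 1 to 2 when single libraries were left out; the 2 without WT replicate 4 were RDH11 and RDH16. DESeq2 called 3 members. Over all genes the 165 calls became 639 with DESeq2, 66 without WT replicates 1 and 2, and 38 to 259 when single libraries were left out. The 0 other retinoid genes called became 1 with DESeq2 (PNPLA3) and 0 to 1 when single libraries were left out. No paired analysis was possible because the labels give no replicate numbers shared between the groups. An order of the genes by level per transcript length was not run, because no transcript lengths were used here. CYP26A1 and LRAT rest on 84 to 406 and 128 to 266 counts per library, which limits their precision.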
